A study of Mus musculus with 90 samples.

Results

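The genes described here encode conjugating enzymes of phase II metabolism in mouse liver, namely glutathione S-transferases (Gst), UDP-glucuronosyltransferases (Ugt), and sulfotransferases (Sult). Members were taken by symbol from the rows with an NM_ RefSeq ID, as Gst followed by a, k, m, o, p, t, or z and a digit, as Ugt1, Ugt2, or Ugt3, or as Sult, with 1 RefSeq ID per symbol. This gave 63 genes of 24312 symbols in the RNA table, with 22 Gst, 20 Ugt, and 21 Sult genes. RNA was measured in 54 liver libraries, each from a single male mouse, in 5 experiments on night-restricted feeding (NRF), a routine in which chow is given in the dark period only for 4 days. Zeitgeber time (ZT) counts hours from lights on, with lights off and food at ZT12. Values are RPKM, reads on a transcript scaled to its length in kilobases and to the mapped reads of the library.

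The NRF experiment held uninjected C57BL/6N mice of 10 weeks of age at ZT10-unfed, ZT14-unfed, and ZT14-fed (n = 2 each). The injected experiment held C57BL/6N mice of the same age, given an intraperitoneal injection 30 minutes before ZT12 and killed at ZT14 (n = 4 each). These were unfed with vehicle (PBS), fed with vehicle, fed with dex (dexamethasone, a synthetic glucocorticoid, at 1 mg/kg), fed with S961 (a peptide antagonist of the insulin receptor), and fed with both. In the L-GRKO experiment, adult mice homozygous for a floxed Nr3c1, the gene of the glucocorticoid receptor (GR), on a C57BL/6N background received an adeno-associated virus that expresses CRE (L-GRKO) or GFP (control) from the Tbg promoter of hepatocytes, and all were unfed at ZT14 (n = 4 each). In the L-IRSdKO experiment, mice of 10 weeks on a C57BL/6J background had floxed Irs1 and Irs2, which encode the insulin receptor substrates, with Alb-Cre, active in hepatocytes (L-IRSdKO), or without it, and all of them received dex at 1 mg/kg and were fed at ZT14 (n = 4 each). In the obesity experiment, wild-type mice were kept for 10 weeks on a high-fat diet (diet-induced obese) or on chow (lean) before the NRF routine, and were unfed or fed at ZT14 (n = 3 each). The paper has the high-fat diet begin in mice younger than 10 weeks. After 10 weeks of diet they were thus older than the mice of the NRF experiment. Diet and body weight cannot be told apart in the obesity experiment.

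In phase II metabolism, drugs, hormones, bilirubin, bile acids, and lipid peroxidation products are joined to a polar group so that they can be exported in bile or urine. GST enzymes add glutathione, UGT enzymes of the endoplasmic reticulum add a sugar from UDP-glucuronate or a related donor, and SULT enzymes add sulfate from the donor PAPS. Hepatocytes hold most of this capacity, and many of the genes are known targets of the nuclear receptors CAR and PXR, of the oxidant sensor NRF2, and, in rodents, of the sex-dependent pattern of growth hormone.

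Binding of GR and of FOXO1, the transcription factor that insulin signaling removes from the nucleus, was available as lists of 10446 GR peaks and 8546 FOXO1 peaks from ZT14-unfed livers. Of the 63 genes, 57 had a start site in the GENCODE vM1 annotation of mm9. A GR peak lay within 50 kb of the start site of 47 of the 57 genes (82.5%), against 34.0% of 18201 placed genes, and a FOXO1 peak of 36 (63.2%), against 35.8%. Among the 43 placed members with a mean of at least 0.5 RPKM, the shares were 93.0% for GR and 74.4% for FOXO1, against 47.6% and 50.4% of 9927 placed genes above the same level. The shares carry no test, since many members are neighbours that share peaks. Within 20 kb of any of the 43 placed members with a mean of at least 0.5 RPKM, there were 54 separate GR peaks and 33 separate FOXO1 peaks. Of these GR peaks, 25 overlapped a FOXO1 peak.

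The GR peaks nearest to the start sites of 5 members are shown, picked among those that changed in the mice without hepatic GR or after dex. They do not stand for all members that changed. The nearest GR peak of Sult1c2, which rose in the mice without hepatic GR, lay 191010 bp from its start site. The 5 peaks shown are each 180 bp of the plus strand of mm9. The peak of Sult1d1, at chr5:87999123-87999302, lies 1160 bp upstream of the start site and outside annotated genes. That of Sult1e1, at chr5:88019047-88019226, lies 1500 bp downstream of the start site and overlaps an exon. That of Sult5a1, at chr8:125686642-125686821, lies 4516 bp upstream, inside the gene model Gm20388 and outside exons. That of Ugt1a1, at chr1:90109726-90109905, lies 1281 bp downstream of the start site, in an intron of the Ugt1a genes. That of Ugt3a1, at chr15:9206763-9206942, lies 2732 bp upstream and outside annotated genes. Capitals mark the hexamer AGAACA on either strand, a single arm of the glucocorticoid response element.
Sult1d1: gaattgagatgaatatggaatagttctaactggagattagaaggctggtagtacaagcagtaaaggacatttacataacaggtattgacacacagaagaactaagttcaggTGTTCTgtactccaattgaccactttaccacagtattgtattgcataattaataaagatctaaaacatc
Sult1e1: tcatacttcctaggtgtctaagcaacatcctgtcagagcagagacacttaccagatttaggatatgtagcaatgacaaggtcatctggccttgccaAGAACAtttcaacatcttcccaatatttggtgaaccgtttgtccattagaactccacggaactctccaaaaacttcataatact
Sult5a1: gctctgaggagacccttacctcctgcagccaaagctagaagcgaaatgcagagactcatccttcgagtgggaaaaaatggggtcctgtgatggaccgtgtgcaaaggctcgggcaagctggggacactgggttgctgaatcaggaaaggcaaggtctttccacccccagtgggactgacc
Ugt1a1: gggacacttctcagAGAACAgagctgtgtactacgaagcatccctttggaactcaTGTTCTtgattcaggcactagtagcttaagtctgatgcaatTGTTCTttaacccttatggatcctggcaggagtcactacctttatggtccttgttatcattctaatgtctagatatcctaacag
Ugt3a1: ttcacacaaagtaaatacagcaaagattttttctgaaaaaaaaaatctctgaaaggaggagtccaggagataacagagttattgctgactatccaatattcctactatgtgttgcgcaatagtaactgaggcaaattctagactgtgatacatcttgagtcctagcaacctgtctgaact
The peak of Ugt1a1 holds 3 such hexamers, those of Sult1d1 and Sult1e1 hold 1 each, and those of Sult5a1 and Ugt3a1 hold none. Of the 54 GR peaks within 20 kb of members with a mean of at least 0.5 RPKM, 21 (38.9%) held AGAACA, against 27.7% of all GR peaks. The full element, GNACA and TGTNC with 3 bases between them, read on both strands, was in 3 of them (5.56%), against 7.8% of all. Of the 33 FOXO1 peaks, 7 (21.2%) held the FOXO motif TGTTTAC on either strand, against 18.8% of all FOXO1 peaks. These matches describe letters in the windows and were not tested as binding sites.

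**Figure D1:**
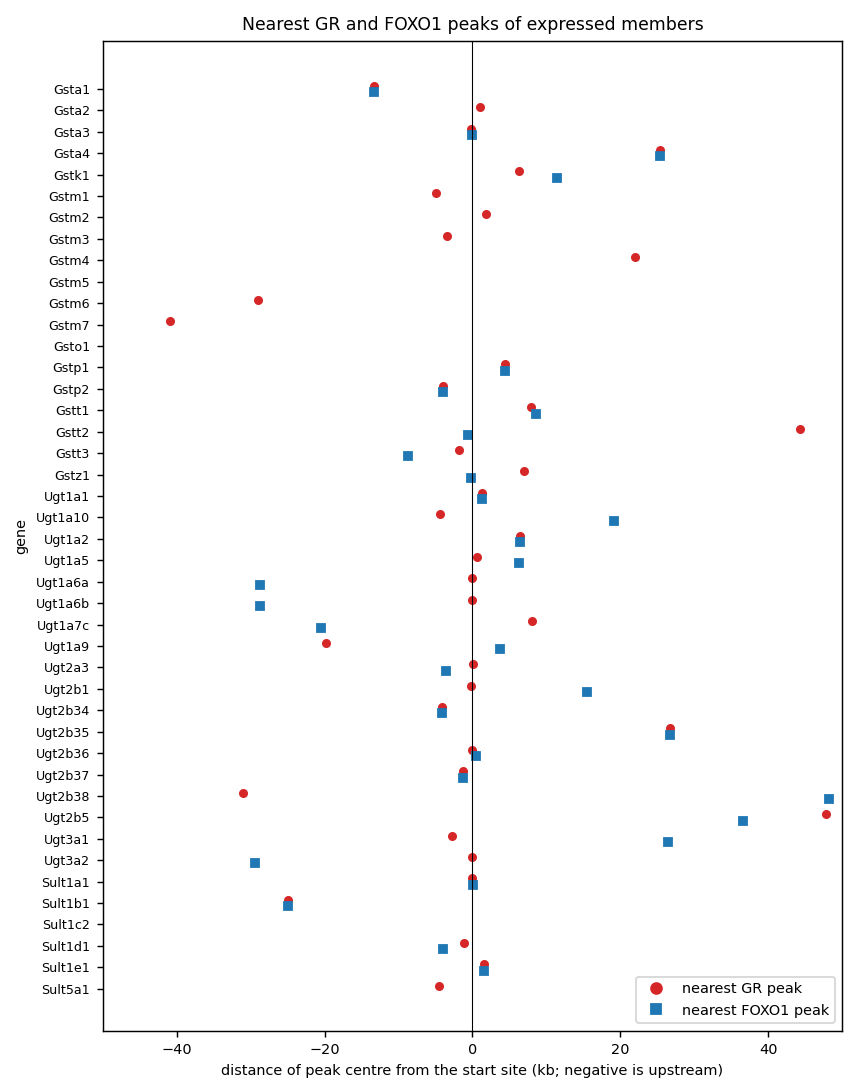
Distance in kb from the start site of each placed member with a mean of at least 0.5 RPKM to the centre of its nearest GR peak (circles) and FOXO1 peak (squares), with negative values upstream and peaks beyond 50 kb left out. Of the 43 genes drawn, 93.0% had a GR peak and 74.4% a FOXO1 peak in this window.

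Gst and Ugt RNA made up most of the family in these livers. Over the 54 libraries, the Ugt genes held 45.4% of the summed mean RPKM of all members, the Gst genes 44.1%, and the Sult genes 10.4%. The Ugt sum counts the shared exons of the Ugt1a symbols 8 times, and with these symbols counted once, at the level of the highest, the shares were 31.2%, 55.7%, and 13.1%. The highest mean level was that of Gsta3, a glutathione transferase of the alpha class, at 834 RPKM. Gstp1, of the pi class, followed at 710 RPKM and Gstm1, of the mu class, at 428 RPKM. Sult2a8, a bile acid sulfotransferase, had 362 RPKM, and Gstz1, which acts in tyrosine breakdown, 308 RPKM. Ugt2b5, Ugt2b1, and Ugt2b36, of the Ugt2b group that acts on steroids and xenobiotics, had 295, 294, and 280 RPKM. Ugt1a6b, of the phenol-conjugating forms, had 275 RPKM, and Ugt1a1, the bilirubin-conjugating form, had 264 RPKM. At the other end, 17 members had a mean under 0.1 RPKM, and Sult1c1 and Sult2a3 were listed at 0 in every library. In all, 44 members had a mean of at least 1 RPKM. The order differed between experiments. Gsta3 had the highest median in 4 of 5, and Gstp1 in the L-GRKO experiment, at 1555 RPKM, whereas Gstp1 had a median of 84.8 RPKM in the L-IRSdKO experiment.

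The 8 Ugt1a symbols tested share their last exons, and their values correlated with r between 0.911 and 1.000 over the 54 libraries, so that they come close to 1 measurement. Reads of Gsta1 and Gsta2, of Gstp1, Gstp2, and Gstp3, of the Gstm genes, of the Ugt2b genes, and of the Sult2a genes can also be split between near-identical copies, and levels of single members of these groups are uncertain. The RPKM files carry no read counts, and no depth per library is given here. Between 23127 and 26690 RefSeq IDs were above 0 per library. Log2 fold changes are differences of means of log2(RPKM + 0.5), and "called" means a Benjamini-Hochberg adjusted p under 0.05 in limma over all genes tested. In bulk liver, fewer cells of a type and less RNA per cell cannot be told apart. Tests were made within experiments only, and levels set side by side across experiments are descriptions. The summed hepatocyte markers Alb, Apoa1, Ttr, Cps1, and Tat were at 2342 to 2834 RPKM in the L-IRSdKO experiment, against 28154 RPKM or more in every other library, and the summed members were at 3690 to 4632 RPKM there, against 5161 RPKM or more elsewhere. The part of this gap in the results was not tested.

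**Figure D2:**
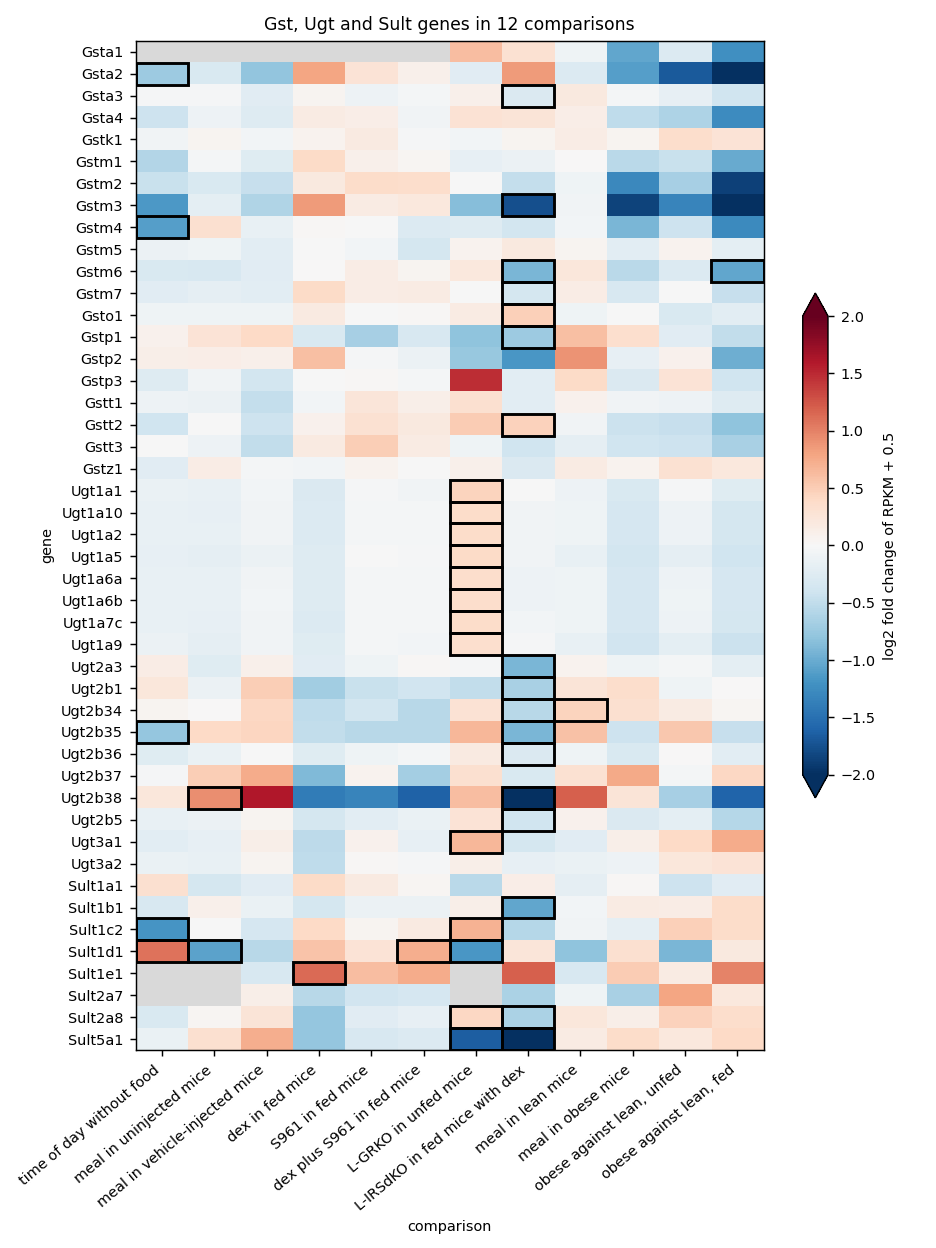
Log2 fold change of RPKM + 0.5 (colour, drawn between -2 and 2) of each tested member in 12 comparisons, with called genes outlined in black and untested genes in grey. The outlined cells are densest in the L-IRSdKO column, with 17 of 46 members, and in the L-GRKO column, with 13 of 44, 8 of which are the Ugt1a symbols.

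To see what the transition from light to dark does to these genes without a meal, ZT14-unfed was compared with ZT10-unfed. Sult1d1, which sulfates phenols and catecholamines, rose, whereas Sult1c2, Gstm4, Ugt2b35, and Gsta2 fell. These were 5 of the 43 members tested (11.6%), against 8.95% of all 10907 genes. Sult1d1 (NM_016771, mm9 chr5:87983670-87998052, minus strand) was at 76.5 and 69.9 RPKM at ZT10 and at 132 and 183 RPKM at ZT14 in unfed mice (log2 fold change 1.08, SE 0.18, adjusted p = 0.016). Sult1c2, another phenol sulfotransferase, went from 3.93 and 4.54 RPKM to 1.95 and 1.27 RPKM (log2 fold change -1.18, SE 0.17, adjusted p = 0.012). The groups did not overlap for either gene. Gstm4, of the mu class, was at 7.99 and 7.35 RPKM at ZT10 and at 3.63 and 3.00 RPKM at ZT14-unfed (log2 fold change -1.10, SE 0.12, adjusted p = 0.0058). Ugt2b35 fell by 0.78 (adjusted p = 0.026) and Gsta2 by 0.73 (adjusted p = 0.032) on the log2 scale.

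The supply of the sugar donor moved in the same interval. Of the 5 genes of UDP-glucuronate supply, 1 rose and 3 fell, among them Ugdh, which makes UDP-glucuronate, from 51.1 to 56.8 RPKM at ZT10 to 28.7 to 31.7 RPKM at ZT14-unfed, and Ugp2, which makes UDP-glucose (log2 fold change -0.73). Gclc, the catalytic subunit of the first step of glutathione synthesis, fell by 0.70 on the log2 scale. With n = 2 per group, single libraries weighed heavily. The count of members called was 1 without ZT10 replicate 1, and 3 without ZT10 replicate 2 or without ZT14-unfed replicate 2. The shares of all genes called in these fits were 1.97%, 1.91%, and 2.71%. Without either ZT10 library, the adjusted p of Sult1d1 was 0.072 and 0.082.

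The response to the meal was then read from ZT14-fed against ZT14-unfed, which shares the ZT14-unfed mice with the comparison above. In uninjected mice Sult1d1 fell and Ugt2b38, of the steroid-conjugating Ugt2b group, rose, as 2 of 43 members (4.65%), against 6.77% of all genes. Sult1d1 was at 83.6 and 65.7 RPKM in fed mice (log2 fold change -1.06, SE 0.18, adjusted p = 0.020), and both ZT10 values given above lie between these levels. Ugt2b38 was at 13.7 and 14.4 RPKM in fed mice and at 7.69 and 6.6 RPKM in unfed mice (log2 fold change 0.93, SE 0.11, adjusted p = 0.0084). Neither gene overlapped between the groups, and neither was called without ZT14-fed replicate 1 or without ZT14-fed replicate 2, with adjusted p between 0.058 and 0.15. The count was 3 without ZT14-unfed replicate 1, against 6.83% of all genes. The median log2 fold change of all genes was 0.12 in this comparison, and that of the members was -0.11. After median-ratio scaling these became 0.01 and -0.24.

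In vehicle-injected mice the meal called 0 of 45 members by limma, against 3.13% of all genes, with 8 members at an unadjusted p under 0.05. Sult1d1 was at 153, 147, 151, and 129 RPKM in unfed mice and at 138, 98.4, 97.9, and 71.6 RPKM in fed mice (log2 fold change -0.55, SE 0.18, adjusted p = 0.10). The groups overlapped at 1 fed mouse. The fourth library of each injected group carries a later library number than the first 3, and its summed members were lower, at 5287 to 5491 RPKM against 6268 to 7957 RPKM in the first series. With a term for the library series, 5 of 45 members were called (11.1%), against 9.21% of all genes. These were Sult1d1 (adjusted p = 0.018), Gstt1, Gstt2, and Gsta3, all lower in fed mice, and Ugt2b34, higher in fed mice. In the 3 mice per group of the first series alone, Ugt2b34 was the 1 member called. Of 5 Kupffer cell markers 2 were higher in fed vehicle-injected mice, with sums of 68.6 to 101 RPKM against 46.7 to 61.7 RPKM in unfed mice, and their part in the result was not tested.

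In lean mice of the obesity experiment, the meal called 1 of 46 members, against 23.4% of all genes. This was Ugt2b34, of the Ugt2b group, at 226, 231, and 218 RPKM in fed and at 144, 196, and 162 RPKM in unfed mice (log2 fold change 0.44, SE 0.11, adjusted p = 0.018). The call did not hold without unfed lean replicates 1 or 3 or without fed lean replicates 1 or 2. Without unfed lean replicate 2 or fed lean replicate 3, 2 members were called, 1 in each direction, against 15.5% and 15.9% of all genes. After median-ratio scaling Ugt2b34 was not called (adjusted p = 0.051), and Sult1d1, lower in fed mice, was (log2 fold change -0.90, adjusted p = 0.042). Sult1d1 was at 101, 74.5, and 147 RPKM in fed and at 259, 135, and 168 RPKM in unfed lean mice (adjusted p = 0.059). In obese mice, Sult1d1 was at 129, 126, and 103 RPKM with food and at 77.0, 90.1, and 124 RPKM without (log2 fold change 0.32, SE 0.28, adjusted p = 0.52). Its fed mean was thus below the unfed mean in lean mice and above it in obese mice, but the interaction of meal and diet called 0 of 46 members by limma, with 3 at an unadjusted p under 0.05. The meal in obese mice called 0 of 46 members by limma, against 7.65% of all genes, with 17 at an unadjusted p under 0.05. Without unfed obese replicate 3 it called 13, all of them lower in fed mice, against 9.09% of all genes, and after median-ratio scaling 7, all Ugt1a symbols, against 7.11%. All 4 endothelial markers fell with the meal in lean mice, with sums of 36.1 to 42.5 RPKM in fed and 49.1 to 59.3 RPKM in unfed mice. Of 4 stellate markers 1 fell, with sums of 40.6 to 54.8 RPKM against 57 to 93.3 RPKM, as did 1 of 5 hepatocyte markers, and their part was not tested.

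**Figure D3:**
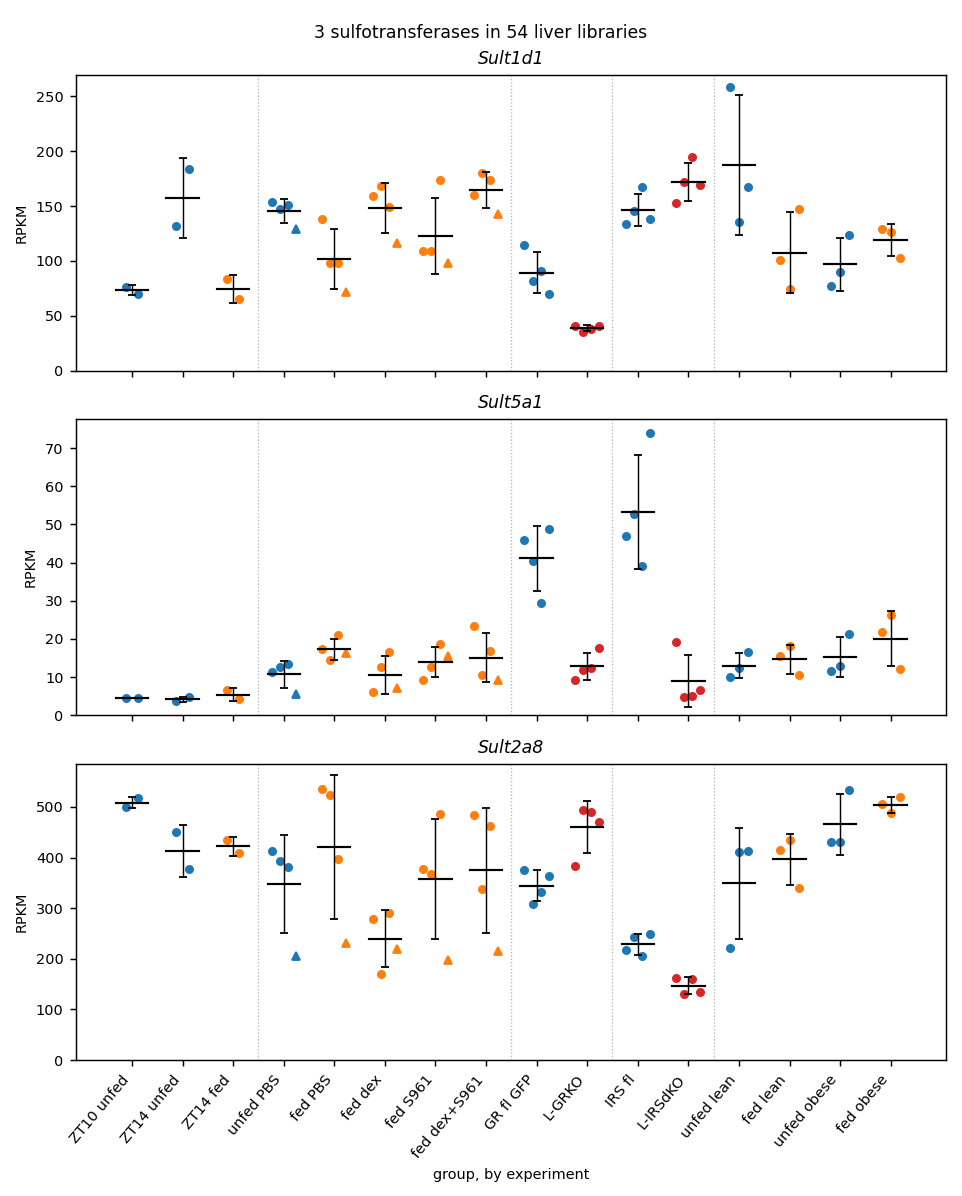
RPKM of Sult1d1, Sult5a1, and Sult2a8 in each of 54 libraries by group, with bars for mean ± SD, dotted lines between experiments, and triangles for the later library series of the injected mice. Sult1d1 sits at 35.5 to 40.9 RPKM in L-GRKO mice, below each other library, and Sult5a1 separates both knockouts from their controls.

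To ask what glucocorticoids do to these genes after a meal, fed mice with dex were compared with fed mice with vehicle. Sult1e1, the estrogen sulfotransferase, rose from low levels, as the 1 of 45 members called (2.22%), against 3.19% of all genes. It was at 3.24, 1.48, 1.55, and 0.55 RPKM with dex and at 0.54, 0.62, 0.19, and 0.35 RPKM with vehicle (log2 fold change 1.14, SE 0.29, adjusted p = 0.036). The groups overlapped, since the lowest dex mouse was below the highest vehicle mouse. The call was lost without any 1 of the 4 vehicle libraries and without dex replicates 1, 2, or 3, with adjusted p up to 0.13. Without replicate 4 of either group, 3 members were called, against 3.04% of all genes without that of vehicle and 4.77% without that of dex.

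Within the library series, more members separated. With a term for the series, 16 of 45 members were called (35.6%), against 9.74% of all genes, and in the first series alone 18 of 45, against 7.28%. The 4 that rose with the series term were Sult1e1, Gstm3, Sult1d1, and Gstm1. Gstm3, of the mu class, was at 65.5, 51.4, 48.9, and 71.4 RPKM with dex and at 22.6, 29.1, 30.8, and 52.5 RPKM with vehicle, and the fourth of each is from the later series (log2 fold change 0.86, SE 0.24, adjusted p = 0.035). Sult1d1 was at 159, 169, 149, and 116 RPKM with dex (log2 fold change 0.57, SE 0.13, adjusted p = 0.014), against the 71.6 to 138 RPKM of vehicle mice given above. The 12 that fell were Ugt genes, except for Sult2a8. Sult2a8, the bile acid sulfotransferase, was at 278, 171, 291, and 219 RPKM with dex and at 536, 523, 397, and 231 RPKM with vehicle (log2 fold change -0.77, SE 0.19, adjusted p = 0.017). The vehicle library of the later series was the lowest of its group and lay within the range of the dex mice. Ugt3a2, which uses sugars other than glucuronate as donors, was at 105, 90.8, 114, and 82.9 RPKM with dex and at 149, 164, 132, and 115 RPKM with vehicle (log2 fold change -0.51, SE 0.08, adjusted p = 0.0013). Its paralog Ugt3a1 fell by 0.53 and Ugt2b1 by 0.69 on the log2 scale, and 7 Ugt1a symbols fell by 0.25 to 0.29. Without the series term none of these passed, with an adjusted p of 0.085 for Ugt3a1 and 0.31 for Ugt1a1. Of 4 endothelial markers 2 fell with dex, with sums of 35.1 to 50.7 RPKM against 53.2 to 62.1 RPKM with vehicle, as did 1 of 5 Kupffer cell markers, with sums of 41.8 to 72.2 RPKM against 68.6 to 101 RPKM. Of sex-biased genes, 2 of 10 male-biased genes fell and 1 of 6 female-biased genes rose, and dex replicate 2 stood apart, with a female-biased sum of 224 RPKM against 7.24 to 85.8 RPKM in the other dex mice. These values are given beside the calls, and their part was not tested.

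Blocking the insulin receptor with S961 in fed mice called 0 of 45 members by limma, against 1.9% of all genes, with 4 at an unadjusted p under 0.05. Dex and S961 together called 1 of 45 members (2.22%), against 10.6% of all genes. This was Sult1d1, at 160, 180, 174, and 143 RPKM with both agents, above each of the 4 vehicle mice (log2 fold change 0.73, SE 0.18, adjusted p = 0.015), and it was not called without replicate 2 of the group with both (adjusted p = 0.054). The count was 4 without vehicle replicate 4, against 9.67% of all genes, and 2 without replicate 1 of the group with both, against 9.05%. Each of these comparisons shares the fed vehicle mice. The median of all genes was shifted by -0.14 on the log2 scale with both agents, and that of the members by -0.04. The difference between dex and S961, read as dex against S961 in fed mice, called 2 of 45 members, against 7.47% of all genes. Ugt3a1 was at 11.8, 12, 12.3, and 12.7 RPKM with dex and at 18.3, 18.1, 25.6, and 15.4 RPKM with S961 (log2 fold change -0.62, SE 0.16, adjusted p = 0.024). Ugt3a2 was at 83 to 114 RPKM with dex and at 117 to 162 RPKM with S961 (log2 fold change -0.54, SE 0.16, adjusted p = 0.047). Neither gene overlapped between the agents. The interaction of dex and S961 called 0 of 45 members by limma, with 3 at an unadjusted p under 0.05. Of 5 Kupffer cell markers 2 fell with S961 and 3 with both agents, with sums of 45.2 to 69.4 RPKM and 52.9 to 61.4 RPKM against 68.6 to 101 RPKM with vehicle, and their part was not tested.

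To ask which of these genes depend on hepatic GR before the meal, L-GRKO was compared with GFP controls. Nr3c1 itself was at 3.93 to 5.35 RPKM in L-GRKO and at 12.8 to 16.2 RPKM in controls. A pair of sulfotransferases fell clearly, namely Sult5a1 and Sult1d1, whereas 11 members rose by less, among them the Ugt1a transcripts, Ugt3a1, Sult1c2, and Sult2a8. The 13 called were 29.5% of 44 members tested, against 6.68% of 11649 genes, with 11 up, against 4.46% of all genes, and 2 down, against 2.22%. Since 8 of the 11 are Ugt1a symbols that share exons, the count overstates the separate changes.

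Sult5a1 (NM_020564, mm9 chr8:125666747-125682215, minus strand) was at 45.8, 40.6, 29.4, and 48.7 RPKM in controls and at 9.38, 11.9, 12.4, and 17.5 RPKM in L-GRKO mice (log2 fold change -1.66, SE 0.19, adjusted p = 0.00096). Sult1d1 was at 114, 81.6, 91.0, and 70.2 RPKM in controls and at 40.7, 35.5, 38.2, and 40.9 RPKM in L-GRKO mice (log2 fold change -1.17, SE 0.14, adjusted p = 0.00090). Neither gene overlapped between the groups, and both were called with every library left out in turn and under each other setting run. Sult1e1 fell below the filter here and had no test. It was at 0.26, 0.18, 0.12, and 0.23 RPKM in controls and was listed at 0 in all 4 L-GRKO mice.

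Among those that rose, Ugt3a1 was at 21.5, 15.7, 16.6, and 16.9 RPKM in controls and at 26.2, 33.2, 25.3, and 28.5 RPKM in L-GRKO mice (log2 fold change 0.67, SE 0.12, adjusted p = 0.0094). Ugt1a1 was at 325, 266, 320, and 270 RPKM in controls and at 400, 414, 423, and 370 RPKM in L-GRKO mice (log2 fold change 0.45, SE 0.10, adjusted p = 0.024). Its groups did not overlap. The other 7 Ugt1a symbols rose by 0.34 to 0.38 on the log2 scale, and Sult2a8 by 0.41 (adjusted p = 0.0499). Sult1c2 went from 2.97, 2.00, 1.64, and 2.64 RPKM to 4.15, 4.13, 2.98, and 4.84 RPKM (log2 fold change 0.69, SE 0.18, adjusted p = 0.044). The median of all genes was shifted by 0.08 here, and after median-ratio scaling 3 members were called, 1 up and 2 down, against 5.69% of all genes, so that the Ugt1a calls did not hold. The count of members called was 3 without control replicate 2 or L-GRKO replicate 2, 4 without L-GRKO replicates 1 or 3, 5 without control replicate 4, and 8 without L-GRKO replicate 4, against 3.36% to 6.09% of all genes in these fits. No Gst gene was called.

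Gstp3 and Gstp1 varied widely between these mice and were not called. Gstp3 was at 969, 422, 504, and 20.6 RPKM in controls and at 526, 1162, 683, and 619 RPKM in L-GRKO mice, and in every other experiment it was at 21.4 RPKM or less. Gstp1 was at 787, 1779, 1940, and 3418 RPKM in controls and at 673, 618, 1512, and 1597 RPKM in L-GRKO mice. The control mouse lowest for Gstp3 was the highest for Gstp1. Gstp2 was at 19.4 to 107 RPKM in this experiment, against 12.3 RPKM or less in every other. Reads of these copies may be split, and the part of this in the values was not tested.

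Other genes of the pathway moved in the L-GRKO mice as well. Of 10 tested NRF2 target genes, 5 rose and 0 fell, among them Ces1g (log2 fold change 1.09), Gclc (0.85), Hmox1 (0.81), and Me1 (0.65). Gclc, of glutathione synthesis, was at 89.5 to 115 RPKM in L-GRKO and at 45.1 to 65.7 RPKM in controls. Of 15 tested phase II enzymes of other families, 5 rose and 2 fell, with the methyltransferase Inmt (log2 fold change 1.41), Nat8 (1.17), and the microsomal transferase Mgst3 (0.75) among those that rose and Nnmt, a nicotinamide methyltransferase (-1.58), among those that fell. Of the 5 genes of UDP-glucuronate supply, the transporters Slc35d1 and Slc35d2 rose (log2 fold change 0.47 and 0.52). Among hepatocyte markers 2 of 5 fell, with sums of 31083 to 42002 RPKM in L-GRKO and 29488 to 43418 RPKM in controls, and 1 of 4 stellate markers rose, with sums of 47.5 to 70 RPKM against 33.1 to 50.1 RPKM. Of 10 periportal genes 4 fell, with sums of 3675 to 4808 RPKM against 6020 to 7130 RPKM. Of 10 male-biased genes 3 fell and 1 rose, with sums of 3426 to 4987 RPKM against 7932 to 14323 RPKM, and of 5 female-biased genes 1 fell and 1 rose, with sums of 38.4 to 64.5 RPKM against 16.1 to 21.6 RPKM. Their part in the result was not tested.

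**Figure D4:**
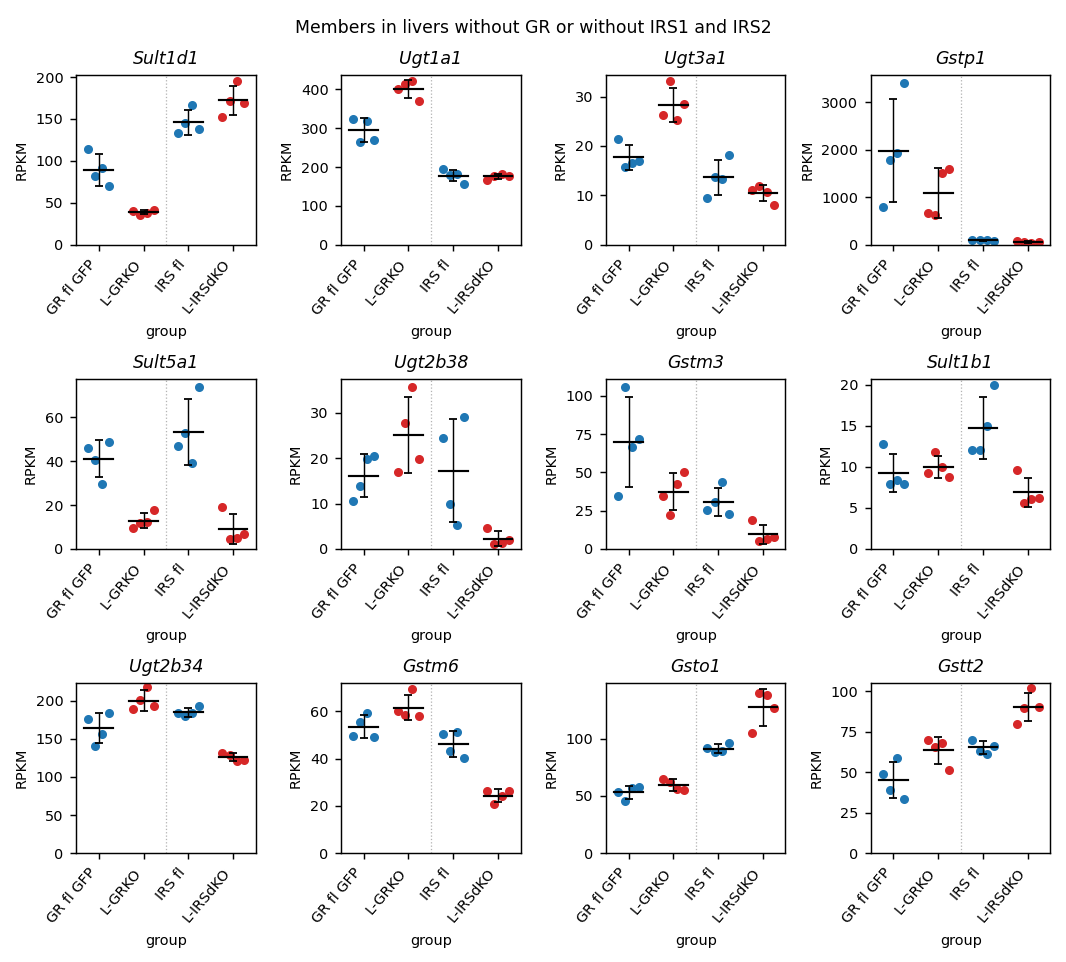
RPKM of 12 members in each library of the L-GRKO and L-IRSdKO experiments, with bars for mean ± SD (n = 4 each) and axes from 0. Sult5a1 falls in both knockouts, to 9.38 to 17.5 RPKM in L-GRKO and 4.72 to 19.2 RPKM in L-IRSdKO, and L-IRSdKO replicate 1 is nearest to the controls for Sult5a1, Sult1b1, and Gstp1.

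To ask what insulin signaling adds in mice that were fed and had received dex, L-IRSdKO was compared with floxed controls. Irs1 was at 0.15 to 0.32 RPKM in L-IRSdKO and at 2.21 to 4.73 RPKM in controls. Irs2 was low and overlapped between the groups, at 0.27 to 1.00 RPKM and 0.61 to 5.61 RPKM. In L-IRSdKO mice 15 members fell, across all 3 families, whereas Gsto1 and Gstt2 rose. The 17 called were 37.0% of 46 members, against 17.4% of 12966 genes. The 15 that fell were 32.6%, against 8.31% of all genes, and the 2 that rose were 4.35%, against 9.06%. The median log2 fold change was -0.29 over the members and 0.03 over all genes.

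The steepest fall was that of Sult5a1, from 47.1, 52.8, 39.0, and 74.0 RPKM in controls to 19.2, 4.72, 5.10, and 6.75 RPKM in L-IRSdKO mice (log2 fold change -2.70, SE 0.40, adjusted p = 0.0046). Ugt2b38, of the Ugt2b group, fell from 24.4, 9.96, 5.32, and 29.1 RPKM to 4.63, 1, 1.42, and 1.88 RPKM (log2 fold change -2.58, SE 0.55, adjusted p = 0.016). Gstm3 fell from 25.3, 30.6, 43.6, and 22.7 RPKM to 18.7, 5.15, 6.27, and 8.01 RPKM (log2 fold change -1.76, SE 0.36, adjusted p = 0.014). In each of the 3 genes replicate 1 was the highest L-IRSdKO library, and no group overlapped. Sult1b1, which sulfates thyroid hormones, fell from 12, 12.1, 14.9, and 20 RPKM to 9.56, 5.64, 6.07, and 6.25 RPKM (log2 fold change -1.05, SE 0.20, adjusted p = 0.012). Ugt2b35, Ugt2a3, and Gstm6 each fell by 0.91 to 0.92 on the log2 scale (adjusted p = 0.0024, 0.031, and 0.0024). Gstp1 fell by 0.73 (adjusted p = 0.024), with 84.9, 49.2, 46.1, and 49.6 RPKM in L-IRSdKO against 84.8 to 99.3 RPKM in controls, and here replicate 1 overlapped the controls.

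The other 7 that fell had smaller changes, with log2 fold changes between -0.64 and -0.29. Ugt2b34 showed the least spread among them, at 184, 179, 184, and 193 RPKM in controls and at 121 to 132 RPKM in L-IRSdKO mice (log2 fold change -0.55, SE 0.05, adjusted p = 0.00097). Sult2a8 was at 218, 242, 205, and 249 RPKM in controls and at 162, 131, 160, and 134 RPKM in L-IRSdKO mice (log2 fold change -0.64, SE 0.10, adjusted p = 0.0048). Of 10 tested Ugt2 and Ugt3 genes, 7 fell, against 0 of the 8 Ugt1a symbols. Ugt1a1 was at 157 to 194 RPKM in controls and at 168 to 182 RPKM in L-IRSdKO mice. Gsto1, a thioltransferase of the omega class, was at 92.0, 88.3, 88.9, and 96.4 RPKM in controls and at 105, 140, 138, and 127 RPKM in L-IRSdKO mice (log2 fold change 0.47, SE 0.09, adjusted p = 0.013). Gstt2, of the theta class, was at 61.4 to 70.1 RPKM and at 80.0 to 102 RPKM (log2 fold change 0.46, SE 0.08, adjusted p = 0.0088). Both separated the groups without overlap.

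The count of members called was 24 without L-IRSdKO replicate 1, against 23.3% of all genes, and 11 without control replicate 1 or without L-IRSdKO replicates 2 or 4, against 8.34% to 12.4%. Among the falls, the calls of Ugt2a3, Ugt2b1, and Gstm7 were each lost in 7 of 8 fits without 1 library. Those of Gstp1 and Gsta3 were each lost in 6, that of Ugt2b36 in 4, and those of the other members that fell in 0. Sult1e1 was at 5.45, 21.9, 15.4, and 20.8 RPKM in L-IRSdKO and at 4.16, 3.75, 8.01, and 9.33 RPKM in controls (adjusted p = 0.098). Genes with a known sex difference in liver moved in these male mice. All 10 male-biased genes tested fell, with Hsd3b5 at 1.18 to 5.67 RPKM in L-IRSdKO and 39.4 to 97.4 RPKM in controls, and 6 of 8 female-biased genes rose, with Cux2 at 9.79 to 13.2 RPKM against 0.11 to 1.57 RPKM. Slco1a1, a male-biased importer of organic anions, fell by 2.28 on the log2 scale. Of 13 transporters of conjugates and organic anions tested, 3 rose and 6 fell. Ugdh was at 40.3 to 53.2 RPKM in L-IRSdKO and at 90.2 to 118 RPKM in controls (log2 fold change -1.12, adjusted p = 0.0010). Of 5 Kupffer cell markers 1 rose, with sums of 248 to 291 RPKM in L-IRSdKO and 146 to 258 RPKM in controls, and of 4 endothelial markers 2 rose, with sums of 83.4 to 126 RPKM and 81.9 to 108 RPKM. Of 4 stellate markers 1 rose, with sums of 108 to 129 RPKM against 90 to 109 RPKM, and 1 of 3 cholangiocyte markers tested and 1 of 5 hepatocyte markers fell, the former with sums of 1.65 to 2.91 RPKM against 3.44 to 5.43 RPKM. Their part in the result was not tested.

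Between obese and lean mice with food, the mu-class gene Gstm6 fell, as the 1 of 46 members called (2.17%), against 0.499% of all 11434 genes. It was at 36.5, 36.7, and 35.2 RPKM in obese and at 64.0, 71.4, and 90.1 RPKM in lean mice (log2 fold change -1.03, SE 0.19, adjusted p = 0.049), and it was not called without any 1 of the 6 fed libraries (adjusted p between 0.11 and 0.17). In this fit all 4 groups share 1 estimate of the spread, and 25 members had an unadjusted p under 0.05. With the 6 fed mice fitted alone, 20 of 46 members were called (43.5%), against 6.32% of all genes, 19 of them lower in obese mice. The median log2 fold change of the members was -0.35, against 0.01 over all genes.

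Gst genes made up 10 of the 20. Gstm3 was at 4.96, 4.06, and 4.80 RPKM in fed obese and at 23.4, 32.7, and 105 RPKM in fed lean mice (log2 fold change -3.10, adjusted p = 0.017 with the fed groups alone and 0.078 with all groups). Gsta2, of the alpha class, was at 4.16, 1.29, and 1.94 RPKM in obese and at 13.7, 12.3, and 20 RPKM in lean mice (log2 fold change -2.51, adjusted p = 0.012 and 0.080). Gstm2 was at 8.98, 12.4, and 10.3 RPKM and at 28.1, 34.3, and 64.6 RPKM (log2 fold change -1.87, adjusted p = 0.016 and 0.068). In none of these did the groups overlap. Gstm4, Gsta4, Gstm1, and Gstt2 had log2 fold changes of -1.27, -1.25, -1, and -0.81, and 7 Ugt1a symbols had -0.43 to -0.33. Ugt3a1 was the 1 member that was higher in obese mice, at 25.6, 26.8, and 26.3 RPKM against 16.4, 14.8, and 15.2 RPKM (log2 fold change 0.75, adjusted p = 0.0033 and 0.074). Of 9 tested NRF2 target genes and 12 genes of glutathione supply, 0 were called by limma with all groups, against 0.499% of all genes. At that share few calls can appear, and these lists were not read with the fed groups alone.

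Without food, obese and lean mice differed in 0 of 46 members by limma, against 5.22% of all genes, with 10 at an unadjusted p under 0.05. The libraries of unfed obese mice stood apart from one another. Replicate 1 had 57.2 RPKM of Gstm3, 15.4 RPKM of Gsta2, and 37.1 RPKM of Gstm4, within or above the range of the lean mice for each, whereas replicates 2 and 3 had 14.1 and 6.88, 4.25 and 2.19, and 15.3 and 8.28 RPKM. Without replicate 1, 12 members were called, 4 up and 8 down, against 11.7% of all genes. Of 4 endothelial markers 3 were lower in unfed obese mice, with sums of 28.9 to 37.7 RPKM against 49.1 to 59.3 RPKM in unfed lean mice, and their part was not tested. When unfed lean replicate 1 and unfed obese replicate 2, which had Hsd3b5, a male-biased steroid dehydrogenase, at 2.54 and 3.56 RPKM, were left out together, the fed comparison called 2 members, Gstm6 and Ugt3a1.

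**Figure D5:**
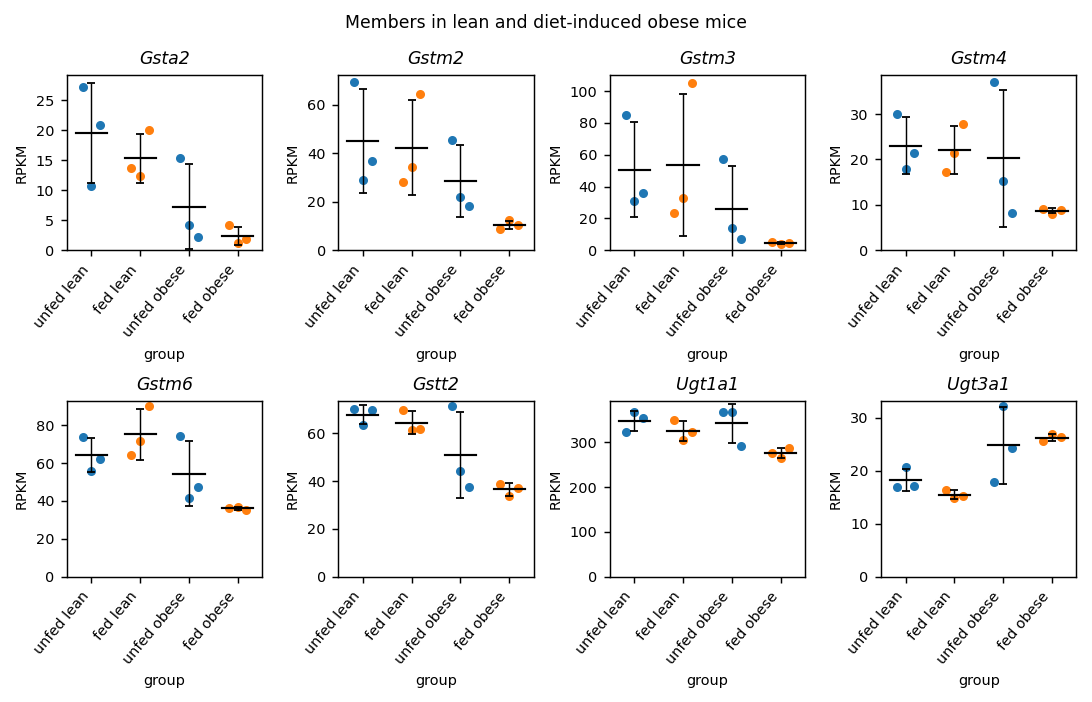
RPKM of 8 members in each of 12 libraries of the obesity experiment, with bars for mean ± SD (n = 3 each) and axes from 0. The 8 genes were chosen after their values were seen, so that their separation is no test. In the fit over all groups 1 of 46 members, Gstm6, was called between fed obese and fed lean mice, against 0.499% of all genes. The 3 fed obese mice sit close together and below each fed lean mouse for 7 of the genes, and above them for Ugt3a1. Unfed obese replicate 1 lies apart from the other unfed obese mice.

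Across the 12 comparisons, 31 of the 46 members tested in any of them were called at least once (67.4%), against 45.7% of all 13201 genes tested, and 7 of the 31 are Ugt1a symbols beyond the first. Sult1d1 was called in 4, with 2 rises and 2 falls, and 7 members were called in 2. Sult5a1, Gstm6, and Ugt2b35 fell in both of theirs. Sult1c2, Sult2a8, Ugt2b34, and Ugt2b38 were called in opposite directions in different experiments, and for Sult2a8 these were the rise in L-GRKO and the fall in L-IRSdKO. This rise of Sult2a8 (adjusted p = 0.0499 by limma) was lost in 7 of 8 fits without 1 library and in 4 of 7 other settings. The fall of Sult2a8 was lost in 0 of either. In the fits over all groups the Ugt1a symbols were called in L-GRKO, and 7 of them were also lower with dex given the library series term and in obese fed mice given the fed groups alone. The Ugt1a calls in L-GRKO were lost in 2 or 3 of 7 other settings and in 5 to 8 of 8 fits without 1 library.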

How the data were processed

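Liver RNA of single mice was prepared by ribosomal depletion (NRF experiment) or poly(A) enrichment (others), per the labels. The authors aligned reads to mm9 with STAR and deposited RPKM values per RefSeq transcript, and named DESeq2 for their own tests. The deposited peak lists were used for their positions. The authors called GR and FOXO1 peaks with HOMER and kept those shared by replicates. The tool that counted RNA reads is not given in the sources used here. RPKM corrects for depth and length, and not for a few abundant genes.

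Here, each of the 5 experiments had its own limma model (limma 3.58.1, R 4.3.3) of log2(RPKM + 0.5). It held all groups of the experiment, a variance trend, a minimum mean of 0.5 RPKM, and Benjamini-Hochberg adjustment over all genes tested. Peaks were joined to start sites with Python 3.11.15 (pandas 2.3.3, numpy 2.4.6). No value column was left unused (0). The model was tested on simulated data with 200 genes changed by a log2 of 1. The simulated residuals were independent and held no library series, so it cannot speak for the series of the injected mice. The members, lists, and tests were chosen with earlier results of these data known. Named are the 10 highest members, up to 8 called members per direction and comparison, and up to 4 called genes per list. Gstm3 and others in the obesity and dex comparisons, and Gstp3, Gstp1, Sult1e1, and Sult1d1 where not called, were chosen after their values were seen. p-values measure the spread between mice, which in the injected fits without a series term includes that between the library series. Replicate numbers were not used as pairs in the main fits. In each comparison at least 1 same-numbered pair had a correlation of deviations under 0.1. In the NRF experiment, with n = 2, this check cannot decide, since the deviations within a group mirror each other. In the injected comparisons the fourth libraries, of the later series, correlated at 0.49 to 0.61. The S961 dose reads differently in the sources and is not given. The result of 1 gene of the list of other phase II enzymes is not reported here.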

Additional observations from a re-analysis of the deposited data

Results flagged for a closer look

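In L-IRSdKO replicate 1, 3 members lay far from the other 3 libraries of their group, namely Gstp1 at 84.9 RPKM (next 49.6 RPKM), Sult1b1 at 9.56 RPKM (next 6.25 RPKM), and Sult5a1 at 19.2 RPKM (next 6.75 RPKM). In all, 68 pairs of a called member and a group of 4 libraries were examined for this and 3 passed, where chance alone gives about 1 in 20 at the 95% level of Dixon's test.

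The responses to dex and to S961 in fed mice differed for 2 of 45 members (4.44%) in the test of the difference itself, against 7.47% of all genes. The log2 fold change of dex against S961 was -0.621 for Ugt3a1 (adjusted p = 0.0242 by limma) and -0.538 for Ugt3a2 (adjusted p = 0.0473), lower with dex in 4 of 4 mice for both genes.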

How the results depend on the processing

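No call changed direction. Of 41 calls of single members, 15 held under every setting run for them and 20 under every one other than leaving out 1 library. The stricter threshold was run for the NRF and obesity experiments only. The counts of members called moved as follows, and the share of all genes called moved as well. For dex it was 3.19% in the main fit and 9.74% with a library series term. For obese against lean with food it was 0.499%, and 6.32% with the compared groups alone. Leaving out 1 library of the L-IRSdKO experiment gave 8.34% to 23.3%, against 17.4% with all of them. Where no share is given, a count does not set the members apart from all genes. A pseudocount of 0.1 RPKM gave 0 for obese against lean with food. Without the filter, 1 was called for time of day, 1 for the meal in uninjected mice, 0 for dex, 4 for L-GRKO, and 0 for obese against lean with food. A filter at a mean of 2 RPKM gave 0 for dex and 4 for the meal in obese mice. Median-ratio scaling gave 1 for the meal in vehicle-injected mice, 3 for L-GRKO, 7 for the meal in obese mice, and 0 for obese against lean with food. Quantile normalization gave 2 for the meal in lean mice, 1 for the meal in obese mice, and 0 for obese against lean with food. With the replicate number as a block, 3 were called for the meal in vehicle-injected mice, 16 for dex, 1 for S961, 4 for dex plus S961, 7 for L-GRKO, and 0 for obese against lean with food. Same-numbered libraries shared only a number, except that the fourth library of each injected group came from the later series. A library series term gave 5 for the meal in vehicle-injected mice, 16 for dex, 1 for S961, and 3 for dex plus S961. An adjusted p under 0.01 gave 1 for time of day, 1 for the meal in uninjected mice, 0 for the meal in lean mice, and 0 for obese against lean with food. With the compared groups alone, 3 were called for time of day, 0 for dex, 2 for the meal in lean mice, and 20 for obese against lean with food. Chosen after seeing the data, the first library series alone gave 1 for the meal in vehicle-injected mice, 18 for dex, and 3 for dex plus S961, and leaving out 2 obesity libraries gave 2 for obese against lean with food. Leaving out each library in turn gave 1 to 4 for time of day, 0 to 3 for the meal in uninjected mice, 0 to 1 for the meal in vehicle-injected mice, 0 to 3 for dex, 0 to 0 for S961, 0 to 4 for dex plus S961, 3 to 12 for L-GRKO, 11 to 24 for L-IRSdKO, 0 to 2 for the meal in lean mice, 0 to 13 for the meal in obese mice, 0 to 12 for obese against lean without food, and 0 to 0 with food. The causes were not tested.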
